A study of Danio rerio with 6 samples.

Results

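The zp2 egg coat genes of the zebrafish are 5 neighbouring copies, zp2.1 (ENSDARG00000086352), zp2.2 (ENSDARG00000105346), zp2.3 (ENSDARG00000090237), zp2.5 (ENSDARG00000086522) and zp2.6 (ENSDARG00000091409). They were taken by these identifiers from a table of 31540 Ensembl genes, and all 5 passed the filter on low counts. RNA had been sequenced from follicles at the primary growth (PG) stage and at the next stage, named pre-vitellogenin in the labels and previtellogenic (PV) here, in wild type (WT) fish of the AB strain whose age was not given. Each stage had 3 libraries, and each library came from the pooled ovaries of 3 females. By the methods 3 such pools were used in all, and RNA of both stages was taken from each, so the PG and PV libraries share their fish, although the sources do not say that equal replicate numbers mark the same pool. PG and PV follicles were separated by sieves of different pore size, so a library held whole follicles, with the oocyte and the somatic cells around it. The comparison of PG with PV follicles asks which genes change when a follicle leaves primary growth.

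Egg coat proteins share the zona pellucida (ZP) domain, through which they polymerize into filaments. In fish the filaments form the vitelline envelope, which lies between the oocyte and its follicle cells and becomes the chorion of the spawned egg. Fish egg coat genes are expressed in the ovary, the liver or both, and in zebrafish the ovary is the main site. Many of them exist as tandem copies, so a read of one copy can match another.

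From the sequencing of these libraries, the paper reported significantly lower expression of zp2 and zp3 genes in PV follicles. By quantitative PCR normalized to the reference gene ef1a, it reported zp2.1 and zp2.5 as significantly lower too. Those PCR values are relative to ef1a, not to the whole library. The study's quantitative PCR primers for these 2 copies are shown here because they bear on how far single copies can be read separately. The primer table prints 1 pair of 20-base primers for zp2.1 and the same letters for zp2.5, but under different primer numbers and with different product lengths, so whether both assays used these primers is not settled. They are written 5′ to 3′, and no base is in capitals since 0 bases differed between the primers printed for zp2.1 and those printed for zp2.5.
Forward, as printed for both: cctggtttggtgctttttgt
Reverse, as printed for both: gaagtggttggctgacctgt
The sequences of the copies themselves were not compared here. The sequencing counts were derived from coverage by StringTie and its script, and how reads that fit more than 1 copy were divided is not given in the sources used here. If such reads exist, the value of a single copy depends on that division and the sum of the copies does not.

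Library totals ran from 14492086 to 36603108 counts, in ranges that overlapped between the stages, and libraries of 1 stage differed by more than counting error (chi-square per degree of freedom of 5.25 to 13.6), so none was a second deposit of another. Markers of the oocyte, follicle cells and blood were looked at for the make-up of the follicles. Of 16 oocyte markers 13 were matched, and they made up 0.533 to 0.544% of PG and 0.358 to 0.374% of PV counts. Of 11 follicle cell markers 9 were matched, and 7 of 7 tested rose, with a summed share of 0.000338 to 0.000568% in PG and 0.00735 to 0.00900% in PV libraries. Of 5 blood markers 4 were matched and 2 were called lower, with a share of 0.00252 to 0.00314% in PG and 0.00108 to 0.00221% in PV libraries. By the rule for calls given below, 5.97% of all genes tested were called lower in PV and 13.2% higher. The part of oocytes, follicle cells and blood in the results was not tested. Levels here are relative to the other RNA of a library, and RNA per follicle is not given in the sources used here. A lower level can mean a smaller oocyte part of the RNA, less RNA of a gene per oocyte or more of other RNAs per oocyte. In whole follicles these cannot be told apart, which holds for each change in level given here. Ratios between genes within a library are not affected by a common scaling of oocyte RNA.

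The 5 copies together took a large share of the follicle transcriptome, and that share was lower in PV follicles. They held 2.13%, 2.12% and 2.22% of all counts in PG replicates 1, 2 and 3, and 0.991%, 0.911% and 0.974% in PV replicates 1, 2 and 3. The lowest PG library was thus well above the highest PV library. The means were 2.16% ± 0.0562 and 0.958% ± 0.0420 (SD, n = 3 each). Counting error was estimated as far smaller than this spread, as the 95% binomial interval of PG replicate 1 ran from 2.13% to 2.14%. That interval treats the coverage-derived counts as independent reads, so it may be too narrow. Without molecular identifiers it covers counting error only. Expressed as CPM, the usual scaling of counts to a common library size, here with the TMM factors of edgeR, the sum was 24915 ± 718 in PG and 8300 ± 378 in PV follicles, 3.0-fold lower in PV, with a log2 change of -1.59 (SE 0.0452). With libraries scaled by their totals it was 2.25-fold lower, with a log2 change of -1.17 (SE 0.0427). The sum does not depend on how reads shared among the 5 copies were divided, if each was counted once. Reads that also fit genes outside the 5 could still alter it, and their part was not tested.

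Each of the 5 copies had a lower relative level in PV follicles. The counts of 15899 genes were tested with the quasi-likelihood method of edgeR, with p-values adjusted by Benjamini and Hochberg's procedure over all of them, and a gene was called where the adjusted p was at most 0.05 and the log2 fold change was 1 or more in size. By this rule 5 of 5 copies were called lower in PV, beside 949 of all genes tested (5.97%), while 2105 (13.2%) were called higher. All 3 PV values lay below all 3 PG values for each copy, as they did for 32.9% of all genes tested. The copies are among the most abundant transcripts, however, and of the 100 genes of highest mean CPM, which include all 5 of them, 72 were called lower (72.0%) and 2 higher. The log2 fold changes of these 100 genes had a median of -1.18, against 0.03 for all genes tested and -1.59 for the copies.

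The copy with the most counts was zp2.2, which encodes a ZP2-type egg coat protein like the other copies. Its level was 8135, 8234 and 8878 CPM in the PG libraries and 2785, 2663 and 2860 CPM in the PV libraries. Every PV value was far below every PG value. It was the gene with the 3rd highest count of the whole table in each PG library, at 0.704%, 0.716% and 0.767% of all counts, and ranked between 5 and 6 in the PV libraries, at 0.324%, 0.308% and 0.327%. Its log2 fold change was -1.60 (SE 0.0440, adjusted p = 2.52e-09 by edgeR).

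The largest estimate of the change was that of zp2.3, the neighbour of zp2.2. It was measured at 4840, 4735 and 5180 CPM in PG and at 1616, 1534 and 1589 CPM in PV libraries. Again the stages did not overlap, and the PV values lay closer together than the PG values. It took 0.419%, 0.412% and 0.447% of the counts of the PG libraries and 0.188%, 0.178% and 0.182% of those of the PV libraries, and its place among all genes by count went from between 12 and 16 to between 28 and 30. The log2 fold change was -1.64 (SE 0.0421, adjusted p = 1.65e-09 by edgeR).

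Its near equal in counts was zp2.5, a copy of the other end of the array. This copy had 4759, 4616 and 4711 CPM in PG and 1630, 1450 and 1606 CPM in PV libraries. The PG values hardly differed, while PV replicate 2 was the lowest of its stage. Its share of all counts was 0.412%, 0.401% and 0.407% in PG and 0.189%, 0.168% and 0.184% in PV libraries, with ranks of 17 to 18 and of 27 to 31. The log2 fold change was -1.59 (SE 0.0464, adjusted p = 3.33e-09 by edgeR).

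For zp2.1, which lies between zp2.6 and zp2.5, the level was 3917, 3838 and 3869 CPM in PG and 1405, 1281 and 1377 CPM in PV libraries. The stages stood clearly apart, and PV replicate 2 was again the lowest. It held 0.339%, 0.334% and 0.334% of PG and 0.163%, 0.148% and 0.158% of PV counts, with ranks of 24 to 27 and of 35 to 37. Its log2 fold change of -1.52 (SE 0.0403) was the smallest of the copies, with an adjusted p of 2.11e-09 by edgeR.

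The copy with the fewest counts was zp2.6, at 3008, 2938 and 3088 CPM in PG and 1086, 936 and 1082 CPM in PV libraries. The groups did not overlap here either, and the low value of PV replicate 2 gave this copy the widest spread of the family in PV. Its coefficient of variation was 8.25% there, against 2.66% for zp2.3, 3.60% for zp2.2, 4.78% for zp2.1 and 6.26% for zp2.5. It took 0.260%, 0.255% and 0.267% of PG and 0.126%, 0.108% and 0.124% of PV counts, with a rank of 39 in each PG library and of 47 to 62 in the PV libraries. The log2 fold change was -1.54 (SE 0.0562, adjusted p = 1.41e-08 by edgeR).

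**Figure D1:**
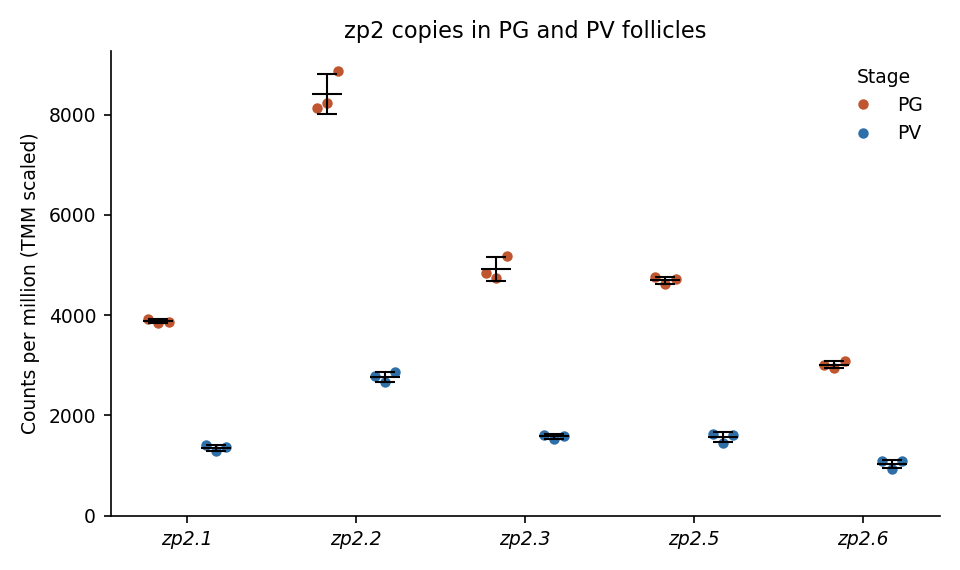
Level of each zp2 copy, in TMM-scaled CPM, in the 3 PG and 3 PV libraries; points are libraries, the long bar is the stage mean and the short bars mark 1 SD on either side. For each copy the PV libraries lie far below the PG libraries, for example at 2663 to 2860 against 8135 to 8878 for zp2.2.

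The calls held when any 1 library was left out, where the copies' log2 fold changes ran from -1.67 to -1.47. Scaling mattered more. With library totals the 5 copies were still called, at -1.10 for zp2.1, -1.19 for zp2.2, -1.22 for zp2.3, -1.17 for zp2.5 and -1.13 for zp2.6, while the median of all genes moved to 0.45 and the share of all genes called lower to 2.61%. With libraries scaled to equal sums of the oocyte markers, 0 of 5 were called, since the copies' log2 fold changes then lay between -0.67 and -0.55, under the threshold of 1, while the median of all genes moved to 1.00. The copies were still lower in PV in that scaling, with edgeR adjusted p-values of 5.42e-07 or less. These p-values take the scaling factors as known, so they hold no error from the choice of markers. With TMM the markers' own log2 fold changes ran from -1.70 to 0.29. The summed markers drew most on buc (0.197% of PG counts) and zar1 (0.136%). Both were called lower themselves with TMM, at log2 fold changes of -1.08 and -1.70, so this scaling largely follows 2 falling genes. The loss of the calls did not rest on the sum alone, however. With the median oocyte marker in its place, a setting added after the data were seen, 0 of 5 were called too. The copies' log2 fold changes then lay between -0.92 and -0.80. With TMM, 11 of the 13 markers lay below 0.

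The order of the copies by count was the same in every PG library. It ran zp2.2, zp2.3, zp2.5, zp2.1 and zp2.6, and no neighbours in it overlapped when their shares of the zp2 total were compared across libraries. By the geometric mean of the ratios of counts within libraries, zp2.2 was 1.71-fold above zp2.3, zp2.3 was 1.05-fold above zp2.5, zp2.5 was 1.21-fold above zp2.1 and zp2.1 was 1.29-fold above zp2.6. The step from zp2.3 to zp2.5 was thus the only narrow one in PG follicles. In PV follicles the order of the means was unchanged, but zp2.3 and zp2.5 could no longer be ranked, with a ratio of 1.01. There zp2.3 had more counts than zp2.5 in 1 of 3 libraries, PV replicate 2, and without that library zp2.5 stood above zp2.3, so that 3 of 5 copies kept their place. The other steps were 1.75-fold, 1.15-fold and 1.31-fold in PV, each without overlap. These are orders of counts, which grow with transcript length, so they do not say which copy had more mRNA molecules.

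As shares of the zp2 total, the means of the copies differed by less than 1 percentage point between the stages. The share of zp2.2 was 33.0%, 33.8% and 34.5% in PG and 32.7%, 33.9% and 33.6% in PV libraries. That of zp2.3 was 19.6%, 19.4% and 20.1% in PG and 19.0%, 19.5% and 18.7% in PV libraries, and that of zp2.5 was 19.3%, 19.0% and 18.3% and then 19.1%, 18.4% and 18.9%. For these 3 copies the stages overlapped. The share of zp2.6 was 12.2%, 12.1% and 12.0% in PG and 12.7%, 11.9% and 12.7% in PV libraries, again with overlap. Only the share of zp2.1 did not overlap, at 15.9%, 15.8% and 15.04% in PG and 16.5%, 16.3% and 16.2% in PV libraries, with means of 15.6% ± 0.454 and 16.3% ± 0.155 (SD, n = 3 each), a difference of 0.759 percentage points. The other copies' mean shares differed by -0.690 (zp2.3), -0.387 (zp2.2), -0.0488 (zp2.5) and 0.367 (zp2.6) percentage points, PV minus PG.

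**Figure D2:**
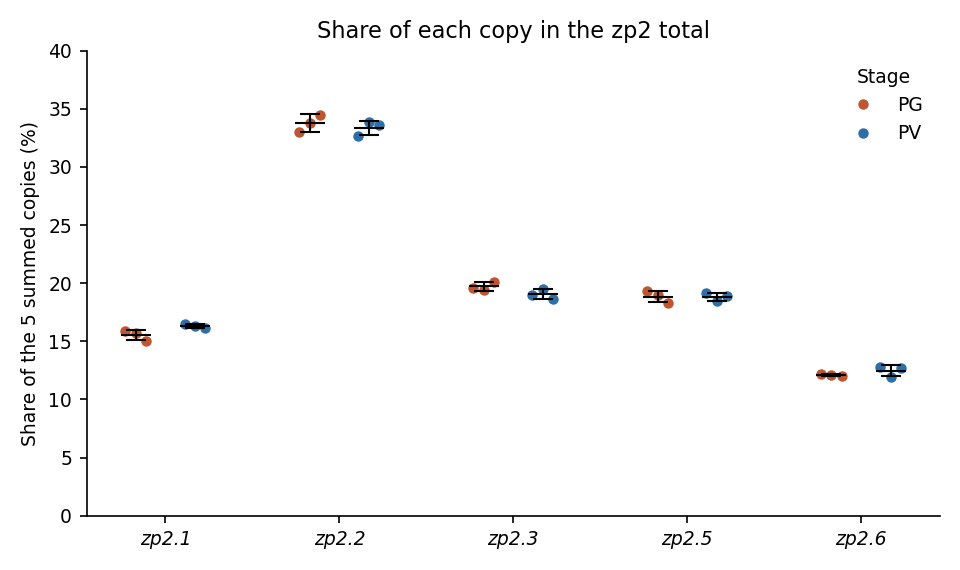
Share of each copy in the summed counts of the 5 zp2 copies, in percent, per library; points are libraries, the long bar is the stage mean and the short bars mark 1 SD on either side. The shares of PG and PV libraries lie side by side for each copy, with zp2.1 at 15.6% in PG and 16.3% in PV as the only copy whose stages do not overlap.

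Whether the copies fell in step was examined with the log2 ratio of 2 copies inside each library, which no scaling can change. The ratio does depend on how reads that fit both copies were divided. Such a division can make a ratio change less than the mRNAs do, and its effect was not tested. Over the 10 pairs, the change of this ratio from PG to PV had a median size of 0.05 and a largest size of 0.12 on the log2 scale, beside a fall of about -1.59 for the copies themselves. The change was larger than the pooled SD between libraries for 6 pairs and not larger for 4. The ratio of zp2.2 to zp2.5 changed by -0.01 (SE 0.0507), within that spread, and the ratio of zp2.3 to zp2.6 by -0.09 (SE 0.0534), beyond it although the stages overlapped.

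For 2 of the 10 pairs (20%) the PG and PV ratios did not overlap, and both involve zp2.1. The log2 ratio of zp2.1 to zp2.3 was -0.31, -0.30 and -0.42 in PG and -0.20, -0.26 and -0.21 in PV libraries, a change of 0.12 (SE 0.0430). The ratio of zp2.1 to zp2.5, its neighbour, was -0.28, -0.27 and -0.28 in PG and -0.21, -0.18 and -0.22 in PV libraries, a change of 0.07 (SE 0.0145). In both pairs zp2.1 gained on its partner, by 1.09-fold and 1.05-fold. The two-sided exact permutation test gave p = 0.1 for either pair, the smallest value that 3 libraries against 3 can give, and 0.429 after Benjamini-Hochberg adjustment over the 10 pairs. The number of such pairs rested on PV replicate 2, since 7 pairs did not overlap without it, against 2 or 3 when any other library was left out.

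The pairs also differed in how tightly they held together from library to library. The pooled SD of the log2 ratio was 0.0177 for zp2.1 and zp2.5, 0.0296 for zp2.2 and zp2.3, 0.0298 for zp2.5 and zp2.6 and 0.0454 for zp2.1 and zp2.6. The other 6 pairs lay between 0.0527 and 0.0654. The tightest pair was thus that of zp2.1 and zp2.5. The part of shared reads in these spreads was not tested.

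**Figure D3:**
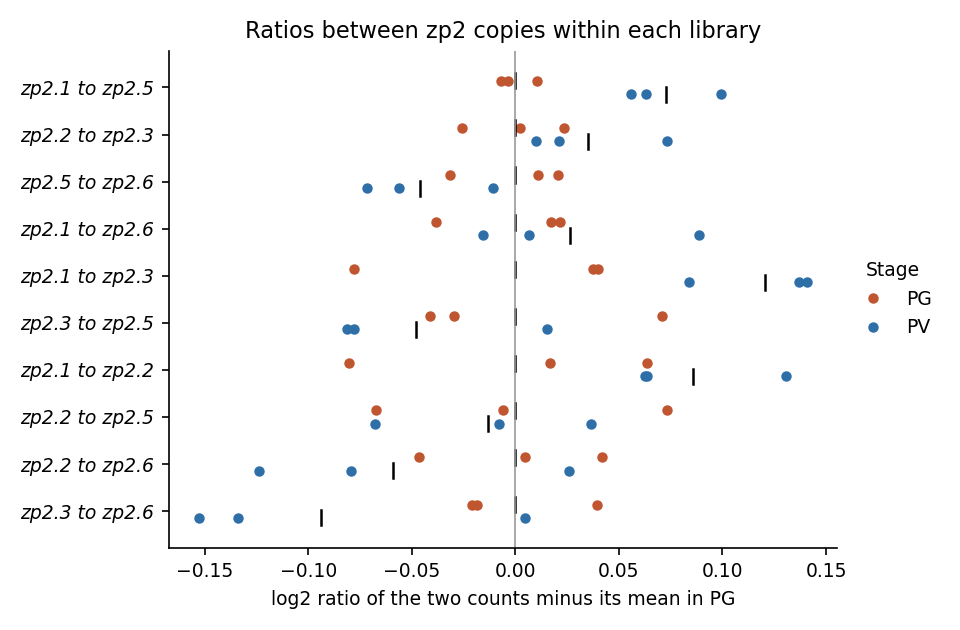
Log2 ratio of the counts of each pair of zp2 copies within a library, minus its mean over the PG libraries; points are libraries, black ticks are stage means, and pairs run from the smallest pooled SD (0.0177, top) to the largest (0.0654, bottom). PG and PV points overlap for 8 of the 10 pairs, and the largest shift of the mean, for zp2.1 to zp2.3, is 0.12.

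The likeness of the copies was set beside that of other egg coat genes. Of the 120 pairs among 16 other egg coat genes, 85 had PG and PV ratios that did not overlap (70.8%), with a median size of the change of 0.22 and a largest of 0.88 on the log2 scale. For the zp2 pairs the median was 0.05 and the largest 0.12, and 2 of 10 did not overlap, or 7 of 10 without PV replicate 2. The other egg coat pairs were not recounted without that library. With fewer libraries in a stage the values overlap less readily, so the 7 cannot be set against the 85. The 16 genes come from several families, and their log2 fold changes ran from -1.46 to -0.58. The smallest change of a ratio among their pairs was 0.00186. Pairs within a family were not taken apart, so close ratios are not shown to be particular to the zp2 copies. The part of shared reads in the closeness of either set was not tested. Pairs that share a gene are not independent, and the difference between the sets was not tested.

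In the RefSeq annotation of the GRCz12tu assembly, which is not the assembly of the counts and was used for names and gene order only, the copies lie in the order zp2.2, zp2.3, si:zfos-1505d6.3, zp2.6, zp2.1 and zp2.5. The gene si:zfos-1505d6.3 (ENSDARG00000089966), named here for its position after its values were seen, had 2830, 2812 and 2937 CPM in PG and 1090, 1000 and 1054 CPM in PV libraries. Its levels were close to those of zp2.6 in counts, and the stages did not overlap. Its log2 fold change was -1.45 (SE 0.0404, adjusted p = 2.60e-09 by edgeR). Adding it to the family raised the family's share to 2.40% of PG and 1.08% of PV counts.

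The genes next to the array changed in different directions. On the side of zp2.2, actr10, a subunit of the dynactin complex, had 69.0 ± 2.35 CPM in PG and 61.1 ± 2.84 CPM in PV follicles (SD, n = 3 each), and its log2 fold change of -0.17 was under the threshold. On the side of zp2.5, cipcb, named after a partner of the mammalian CLOCK protein, rose at a log2 fold change of 1.54, znf410, a zinc finger gene, was at -0.05, and lrfn5b, of a family of synaptic adhesion proteins, was at -0.90. The nucleotidase gene entpd5b fell at a log2 fold change of -2.24, but from a low level of 5.79 ± 0.105 to 1.23 ± 0.326 CPM. Levels were low for the other matched genes of that side too. Means in PG and PV follicles were 10.2 and 29.7 CPM for cipcb and 15.4 and 14.6 CPM for znf410. For lrfn5b they were 5.42 and 2.95 CPM. Of the 5 genes on either side, 1 and 4 could be matched to a row, and the others were not analysed here.

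**Figure D4:**
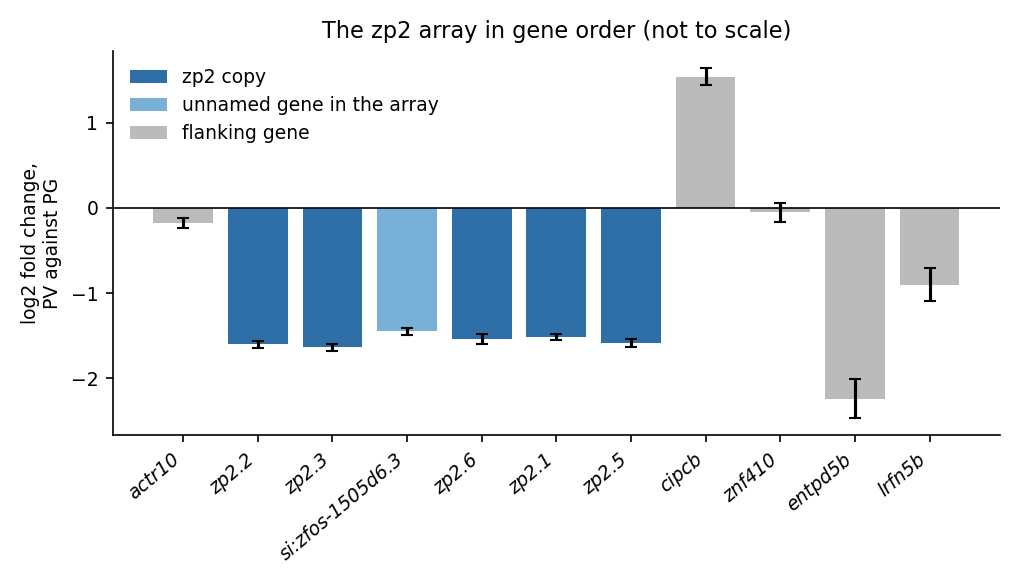
Log2 fold change from PG to PV, in gene order and not to scale, of the zp2 array and the flanking genes with a row. Bars start at 0, and error bars are 1 standard error derived from the F statistic of the edgeR test. The 5 copies lie between -1.64 and -1.52 and si:zfos-1505d6.3 at -1.45, while the flanking genes run from -2.24 to 1.54.

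Other egg coat genes had lower levels in PV follicles too, with smaller estimates than those of the copies. The list held 16 genes of the zp2, zp3, zpax and zpcx families, and 12 of 16 were called lower and 0 higher by the rule that called 5.97% of all genes lower. Of the 16, 10 were among the 100 most abundant genes, of which the rule called 72.0% lower. Their median log2 fold change was -1.33, beside -1.59 for the zp2 copies and 0.03 for all genes. All 16 lay below 0 with TMM or library totals, with an edgeR adjusted p of 0.05 or less by TMM, but with libraries scaled to the summed oocyte markers zp3d.1 (0.39), zp3c (0.21), zp3d.2 (0.07) and zp3f.2 (0.05) had estimates above 0. The number called was 2 with library totals and 0 with either scaling by oocyte markers.

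Nearest to the zp2 copies came zpax1, a member of the ZPAX group of egg coat genes, at -1.46, and ENSDARG00000090768, which the sources name either zgc:173556 or zp3.2, at -1.44. The zp3 genes encode the partner of ZP2-type proteins in the coat, and those called were zp3e and zp3a.2 at -1.38, zp3b at -1.36, zp3a.1 at -1.32 and zp3f.1 at -1.30. Further called genes were zpax4 and zpcx at -1.36, zp2l2 at -1.35, zpax2 at -1.16 and zp2l1 at -1.14. The genes zp2l1 and zp2l2 are named as zp2-like. Both changed by less than each of the zp2 copies. The genes that missed the call were zp3f.2 at -0.92, zp3d.2 at -0.90, zp3c at -0.76 and zp3d.1 at -0.58.

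None of the 16 had a log2 fold change beyond that of zp2.1, the zp2 copy that changed least. The difference between the sets was not tested gene by gene. Taken by library, the zp2 share of the counts of all 21 egg coat genes was 35.5%, 35.6% and 35.8% in PG and 32.1%, 31.3% and 32.5% in PV libraries. The stages did not overlap, at means of 35.7% ± 0.173 and 32.0% ± 0.615 (SD, n = 3 each). The 21 genes made up 6.05% ± 0.130 of PG and 3.0% ± 0.0863 of PV counts.

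**Figure D5:**
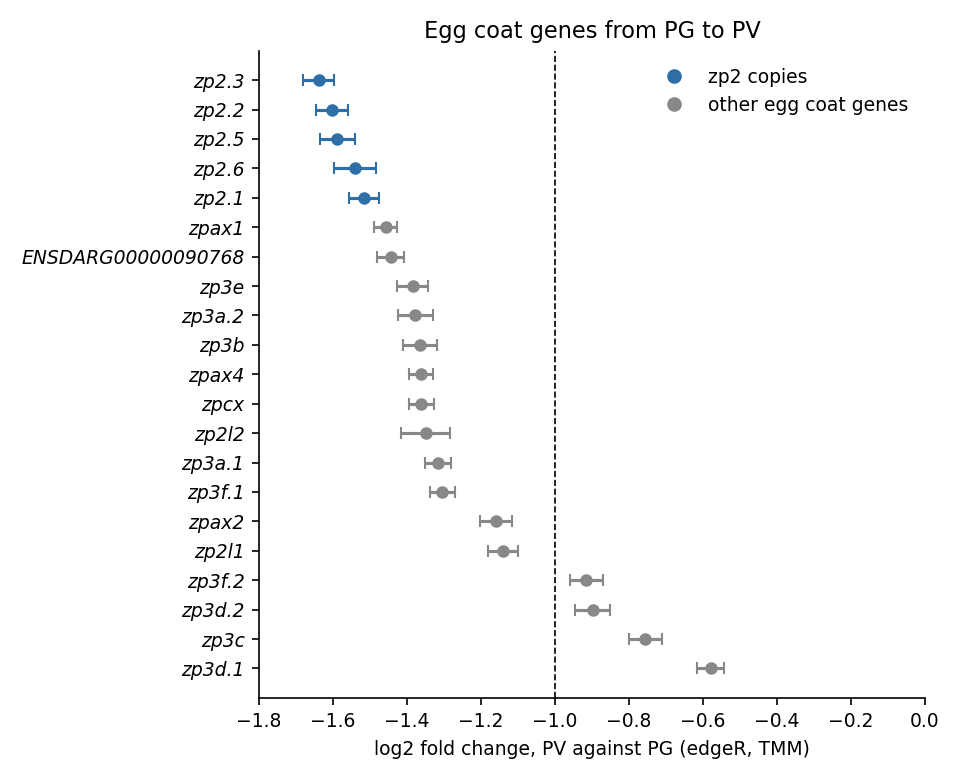
Log2 fold change from PG to PV of the 5 zp2 copies and 16 other egg coat genes, sorted by size; points are edgeR estimates, bars are 1 standard error and the dashed line marks the threshold of -1. The zp2 copies lie at -1.64 to -1.52, left of each of the other genes, which run from -1.46 to -0.58.

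Among the 13 oocyte markers, 2 were called lower and 0 higher, beside 5.97% and 13.2% of all genes tested. Their log2 fold changes had a median of -0.69 and a range from -1.70 to 0.29. Of these markers, zar1, a maternal factor needed at the start of embryogenesis in the mouse, had 1567 ± 57.2 CPM in PG and 481 ± 35.2 CPM in PV follicles (SD, n = 3 each). It was the only marker with a log2 fold change beyond that of zp2.1. The transcription factor figla activates the egg coat genes of the mouse. It was measured at 53.4 ± 2.78 CPM in PG and 33.1 ± 0.850 CPM in PV follicles, and the log2 fold change of -0.69 did not reach 1 in size (adjusted p = 5.62e-06 by edgeR). The estimate for figla was -0.28 with library totals and turned to 0.27 with libraries scaled to the summed oocyte markers, a list that includes it.

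The fall of the copies was large but not singular in the whole table. Of the 15899 genes tested, 331 had a lower log2 fold change than zp2.3, 356 than zp2.2, 370 than zp2.5, 399 than zp2.6 and 423 than zp2.1, or 2.08 to 2.66%. Among the 100 most abundant genes the numbers were 4, 5, 6, 7 and 9 in the same order. Both sets of numbers include zp2 copies that fell more, and the steps from 4 to 7 were such copies.

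Genes whose levels ran most like those of the zp2 copies over the 6 libraries were searched among 2334 genes with a mean of at least 100 CPM. The measure was the root mean square (RMS) difference between a gene's centred log2 CPM and the mean centred profile of the copies, for which the copies themselves scored between 0.0217 (zp2.5) and 0.0413 (zp2.3). Nearest were gtf3ab at 0.0188, related to the factor of 5S rRNA gene transcription, and pabpc1l at 0.0255, a poly(A)-binding protein gene of the germ line. The score of gtf3ab was below those of the copies and that of pabpc1l within their range, at log2 fold changes of -1.57 and -1.56. The mean profile is made of the copies, which lowers their own scores, so these are no neutral yardstick. The next were si:dkey-152b24.6 at 0.0422, the apoptosome gene apaf1 at 0.0429, zgc:66455 at 0.048 and the stress response transcription factor gene atf4a at 0.0482. The list of 10 closed with the carboxypeptidase gene cpm at 0.0522, zgc:153499 at 0.0523, si:dkey-241l7.4 at 0.0568 and wu:fi34b01 at 0.0584. With library totals in place of TMM the same 10 genes were found. That outcome was nearly fixed in advance, since a change of scaling shifts each gene and the mean profile alike. The measure describes these 6 libraries, in which most of the variation is between the stages.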

How the data were processed

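RNA of 3 PG and 3 PV follicle libraries was measured. Reads had been checked with FastQC (version 0.11.5), aligned to GRCz10 with TopHat2 and assembled with StringTie, and the authors deposited raw counts per gene, which are derived from coverage. A second deposited table held a normalized signal, namely raw counts over 1 DESeq2 size factor per library (0.554 to 1.42), used only to check the raw counts. Library totals ran from 14492086 to 36603108 counts. The labels and the methods name different library kits, so whether strand entered the counting is not settled.

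Raw counts of 31540 genes were filtered with filterByExpr (minimum count 10, minimum total 15), which left 15899, scaled by TMM (factors 0.864 to 0.869 in PG, 1.14 to 1.16 in PV) and tested with edgeR's quasi-likelihood test (edgeR 4.0.16, limma 3.58.1, R 4.3.3) with stage as the factor and Benjamini-Hochberg adjustment. Genes were called at an adjusted p of 0.05 and a log2 fold change of 1. The SE of an edgeR log2 fold change was its size divided by the square root of the test's F statistic. The test itself reports no standard error. The code was tested on simulated data. Ratios within libraries were compared by exact permutation tests (scipy 1.17.1, numpy 2.4.6, pandas 2.3.3), and figures drawn with matplotlib 3.10.9. Alternatives were library totals, RLE and upper quartile factors, scaling by oocyte markers, DESeq2 1.42.0, other filters, unadjusted p, a test against a fold change of 2, a replicate block and each library left out. A ranking of the copies per coding length had been planned, and counts were ranked instead because no lengths of the assembly of the counts were at hand.

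Symbols were found for 26620 genes. The named genes were the 5 copies, the egg coat list (symbols starting with zp2, zp3, zp4, zpax, zpbx or zpcx), the 10 genes nearest to the zp2 profile, figla, and markers from fixed lists, with the neighbours of the array added. The oocyte markers were zar1, gdf9, bmp15, figla, ddx4, dazl, buc, npm2a, ybx1, pou5f3, nanog, nanos3 and mos, the follicle cell markers cyp19a1a, fshr, lhcgr, inha, inhbaa, amh, gsdf, kitlga and star, and the blood markers hbaa1, hbba1, ptprc and lcp1. The members and lists were chosen with earlier results of these data known.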

Additional observations from a re-analysis of the deposited data

How the results depend on the processing

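The zp2 calls (5) held under every alternative but the scalings by oocyte markers. Scaling by the summed oocyte markers and by their median, the latter added after the data were seen, left 0 zp2 copies and 0 other egg coat genes called, and 163 and 240 genes called lower in all against 949. Library totals left 2 egg coat genes in place of 12 and 415 genes in all. Genes called higher then numbered 3663 with library totals, and 7676 and 5533 with the oocyte scalings, against 2105. The copies lay between -0.92 and -0.55 on the log2 scale under the oocyte scalings and between -1.66 and -1.10 under the 9 other alternatives. The estimate of zp3d.1 turned to 0.14 with the median oocyte marker and to 0.39 with the summed markers. Requiring 10 counts in every library gave 614 and a test against a fold change of 2 gave 410 genes called lower. The copies' summed counts came to 2.31% of PG counts when the 10 most abundant genes were left out of the total. These genes include zp2.2, which stayed in the sum, so this value is not a share in the strict sense. The share was 2.40% in PG and 1.08% in PV with the unnamed gene of the array, an alternative added after the data were seen. With a library left out, between 3 and 5 of the 5 copies kept their place in the PV order, the lowest without PV replicate 2.

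PG and PV libraries carry the same replicate numbers, but same-numbered libraries did not deviate together, with correlations of -0.0149, -0.00508 and 0.023 over 12229 genes. With the replicate number as a block, 860 genes were called lower and 1983 higher, with 5 of 5 zp2 copies and 12 egg coat genes among the former. The block left the change of the ratio of zp2.1 to zp2.3 at 0.12, with an exact sign-flip p of 0.25, the smallest that 3 pairs allow. Each copy had at least 16719 counts in each library, so counting error was small, and the effect of shared reads on single copies was not tested. For the main results, 104 values under alternatives stayed within their limits and 14 moved. Some of the 104 could not have moved, so this tally does not measure how firm the results are. Shares and ratios of the copies are the same in the deposited normalized counts, since a library's size factor cancels in them. The replicate block cannot alter the mean change of a ratio, and unadjusted p-values can only add calls.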
